A study of Mus musculus with 2 samples.

Results

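Semaphorins, plexins and neuropilins form a family of guidance signals and their receptors, and 33 of the 55487 rows of the count table belonged to it. The rows were chosen by gene symbol. They comprise 20 semaphorins, 9 plexins, the neuropilins Nrp1 and Nrp2, and Plxdc1 and Plxdc2, membrane proteins that share a plexin-type domain but are not plexins. The symbol rule itself used no measured value, but the family was picked with results of these libraries known, among them the ratio of Sema4f, so all values below are descriptions. RNA came from MC3T3-E1, a mouse osteoblastic cell line, in 1 library labelled untreated and 1 labelled PTH (parathyroid hormone, 10 nM), both labelled 1 h. Per the labels, cells grew in α-MEM medium with 10% serum and antibiotics, were plated in 12-well plates at a density of 25000 per cm2, and the hormone was given 24 h later. No genotype, clone or vehicle is named, and all cells are of that 1 line.

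Semaphorins are ligands that steer cell movement and cell shape. Those of class 3 are secreted, those of classes 4 to 6 span the membrane and Sema7a is held by a lipid anchor. Plexins are their transmembrane receptors, which act on small GTPases and so on the actin cytoskeleton. Neuropilins bind most class 3 semaphorins and pair with plexins, and they also bind members of the VEGF family. In bone, Sema3a is known as a factor made by osteoblastic cells and neurons that protects bone mass, and Sema4d as a factor made by osteoclasts that acts on osteoblasts through Plxnb1.

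Gene counts summed to 66302211 untreated and 70036872 after PTH. With 1 library per condition there is no replicate, no p-value was computed, and every ratio compares these libraries, not the conditions. A ratio is PTH over untreated after scaling for library size, and the range in brackets is its 95% exact interval, which covers counting error only. A row counts as past the size rule when its whole interval lies beyond 1.5-fold. In bulk RNA, fewer cells with a transcript and less transcript per cell cannot be told apart. Rgs2, Nr4a2, Crem, Il6 and Tnfsf11, genes known to respond to PTH, were all higher past this rule in the library labelled PTH, with Rgs2 at 123 and 6334 counts and Crem at 199 and 2503. These genes were chosen with earlier results of these data known, so they are a description and not an independent check. Of 12 osteoblast markers all had enough counts to compare, from 24 untreated counts for Bglap2 to 1935295 for Col1a1. Of these, 10 were not past the rule. The share past the rule was 16.7%, against 8.93% of all compared rows. Sp7, the osterix gene, was past it with fewer reads (4583 and 1974 counts) and Bglap2, an osteocalcin gene with near-identical copies, with more (24 and 86), so its reads are uncertain. Of 25 markers of other cell types, 12 were listed at 0 in both libraries and 9 could be compared. Of 8 endothelial markers 2 could be compared, of 9 macrophage and osteoclast markers 4, and of 8 neuron markers 3, and of these 9 only Elavl3, from 6 and 24 counts, was past the rule. Cdh5, Ptprc and Rbfox3, defining markers of these types, were among those at 0, and Ctsk, an osteoclast protease gene, was the most counted, at 5656 and 6452. Itgb3 had 1173 and 1412 counts, Csf1r 122 and 155, and Cd68 67 and 57. Of the endothelial markers, Vwf had 77 and 95 counts and Egfl7 62 and 80. Listed zeros are in excess of sampling, with values beside the plexins, so a 0 is not read as absence.

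The family was largely level between the libraries, as were the compared rows as a whole, with 1 ligand gene much higher and 1 lower after PTH. Of the 33 members, 29 had a total of 20 or more counts and were compared. Sema4f was the 1 member past the size rule with more reads, where 5.39% of all 16408 compared rows were. Sema7a was the 1 member past it with fewer reads, where 3.54% of all compared rows were. In either direction 8.93% of compared rows were past the rule, and 6.9% of the compared members, which is near the background. The median log2 ratio of the compared members was 0.02 and that of all compared rows 0.00. Under total-count and upper-quartile scaling the members' median was -0.02 and -0.01, so its sign carries no direction. Of the 24 members with a total of 200 or more counts, 16 had a ratio within 1.2-fold of 1, against 71.5% of the 11954 rows of that size. Without that limit on size, 62.1% of compared members and 58.3% of all compared rows did. Being level is thus not particular to the family.

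**Figure D1:**
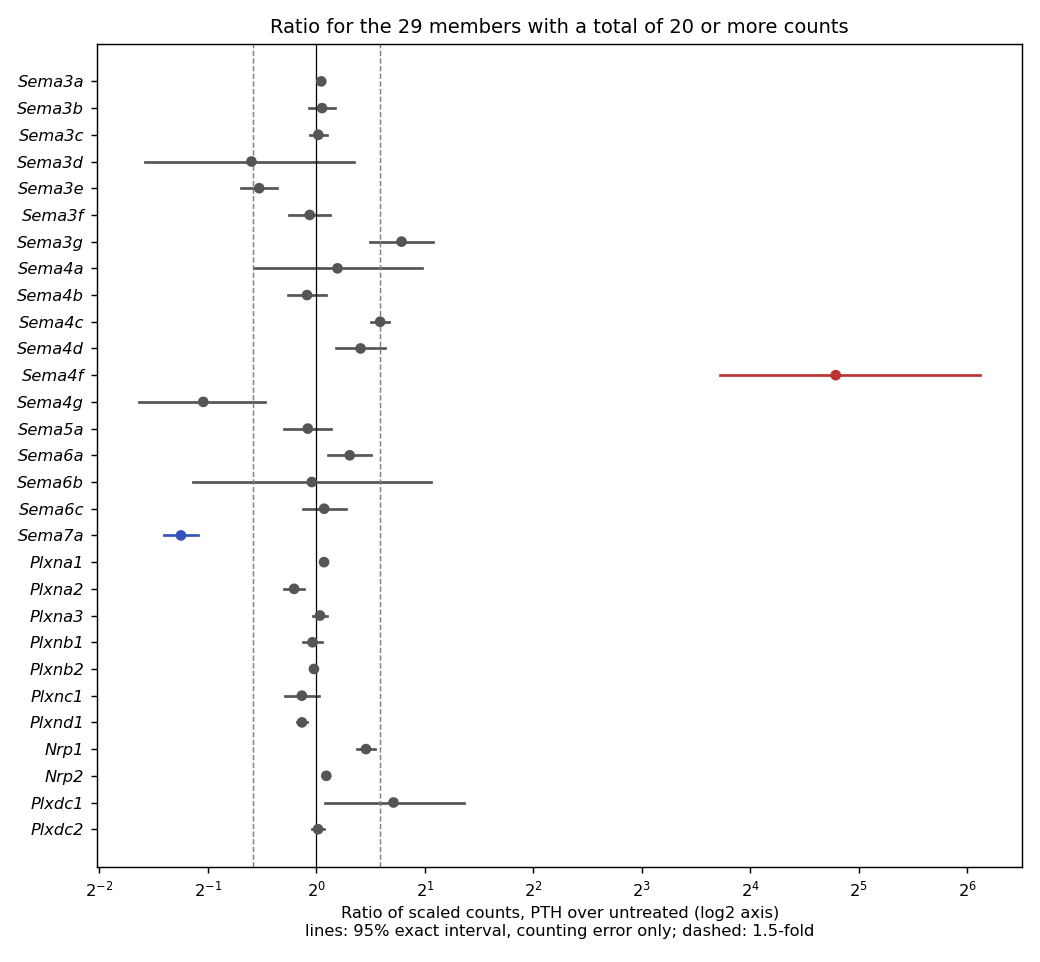
Ratio of scaled counts, PTH over untreated, on a log2 axis for the 29 compared members, in rows grouped by class. Points are ratios, lines are 95% exact counting intervals and dashed lines mark 1.5-fold. The interval of Sema4f lies wholly above the upper dashed line and that of Sema7a wholly below the lower one.

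Sema4f, a transmembrane class 4 semaphorin known from the synapses of neurons, had 7 counts untreated and 199 after PTH. Its level per length was 0.0197 untreated and 0.544 after PTH, given as CPM per kb, the count scaled for library size and divided by exonic length, which is the scale of every level below. The ratio was 27.6 (13.2 to 69.6), and the interval is wide because the untreated count is low. Zeros are in excess across the rows, with values beside the plexins, and whether the same process lowered the 7 counts of Sema4f was not tested. Sema4f thus went from place 29 of 33 in the family by level to place 23, still below Sema4d. The gene lies at chr6:82911885-82939769 on the minus strand (GRCm38, the assembly also called mm10), and no exon of another annotated gene overlaps its exons. Of its protein-coding neighbours, M1ap, 7132 bases away and read from the other strand, had 33 and 27 counts, and Hk2, 137430 bases away on the same strand, had 4876 and 13554 counts, a ratio of 2.70 (2.61 to 2.79). Dok1, 91164 bases away on the same strand, had 2236 and 1465 counts, a ratio of 0.636 (0.595 to 0.680). Pole4, 206519 bases away on the same strand, had 4147 and 4826 counts, a ratio of 1.13 (1.08 to 1.18).

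Sema7a, the lipid-anchored member that binds Plxnc1 and beta1 integrins, had 1121 counts untreated and 486 after PTH. Its level was 5.06 and 2.13 CPM per kb, and the ratio was 0.421 (0.378 to 0.469). The lower library was the PTH library, 2.38-fold below the untreated one. With an interval widened for an assumed coefficient of variation of 0.2 between cultures, that of Sema7a reached from 0.240 to 0.741 and was no longer past the rule. That of Sema4f, from 10.3 to 64.6, was. Sema7a lies at chr9:57940112-57962865 on the plus strand with no exon shared with another gene. Its neighbour Ubl7, 10143 bases away, had 1165 and 1177 counts. Arid3b, 103318 bases away, had 183 and 62 counts, a ratio of 0.329 (0.243 to 0.441). Cyp11a1 and Ccdc33, 43545 and 65811 bases away, were listed at 0 in both libraries.

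Among the 3828 rows with a total of 200 to fewer than 2000 counts, the range that holds both genes, 5.04% were past the rule with more reads and 3.27% with fewer. That range holds 11 members. Sema4f is in it, and among the compared members, through its 199 counts after PTH, so its place there follows from the difference itself and nothing is read from it. None of the 13 compared members with totals of 2000 or more was past the rule, where 4.37% of rows from 2000 to under 20000 and 6.24% of rows from 20000 were. None of the 5 below 200 was, where 17.2% of rows were.

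**Figure D2:**
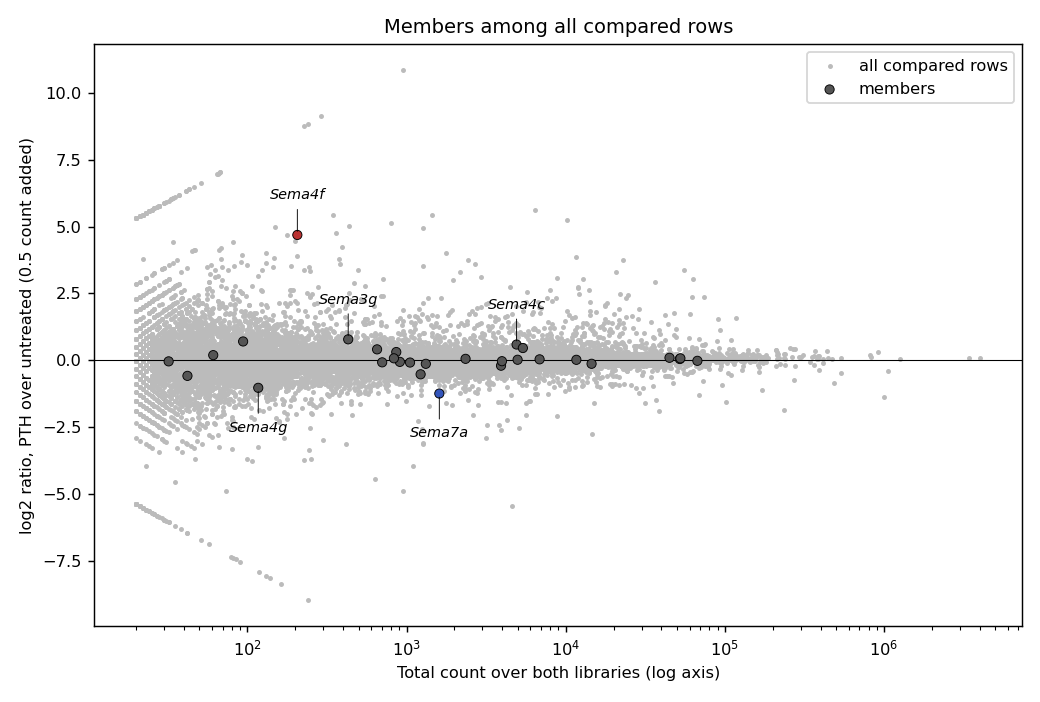
Log2 ratio (0.5 count added) against the total count over both libraries on a log axis, for all 16408 compared rows in grey and the 29 compared members as large points. Sema4f (log2 ratio 4.69) stands far above the other members, Sema7a (-1.25) is the lowest of them, and the members with most counts lie close to 0.

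The start regions of Sema4f and Sema7a are shown because these are the members past the rule, and that of Sema4c because its ratio lay at the 1.5-fold limit. Each is the RefSeq window (GRCm38.p6) from 250 bases before to 50 after an annotated start, printed on the strand of the gene from 5′ to 3′. Capitals mark matches, on either strand, to the cyclic AMP response element TGACGTCA, its core TGACG, the AP-1 element TGANTCA and CCAAT, of which CCAAT was added after the windows were seen. TGACG lies within TGACGTCA, so the counts of these overlap.
Sema4f, chr6:82939720-82940019, minus strand: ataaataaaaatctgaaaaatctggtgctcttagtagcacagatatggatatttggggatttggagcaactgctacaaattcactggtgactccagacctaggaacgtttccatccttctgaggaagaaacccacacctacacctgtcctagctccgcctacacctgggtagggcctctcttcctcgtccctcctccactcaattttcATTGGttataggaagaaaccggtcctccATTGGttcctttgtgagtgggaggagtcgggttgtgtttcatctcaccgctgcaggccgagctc
Sema7a, chr9:57939862-57940161, plus strand: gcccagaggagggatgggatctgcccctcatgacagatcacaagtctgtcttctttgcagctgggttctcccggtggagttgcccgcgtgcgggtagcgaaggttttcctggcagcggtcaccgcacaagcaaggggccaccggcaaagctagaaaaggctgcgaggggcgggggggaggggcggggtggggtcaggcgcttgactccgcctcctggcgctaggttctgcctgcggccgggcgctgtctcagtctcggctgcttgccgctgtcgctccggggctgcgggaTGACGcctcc
Sema4c, chr1:36558332-36558631, minus strand: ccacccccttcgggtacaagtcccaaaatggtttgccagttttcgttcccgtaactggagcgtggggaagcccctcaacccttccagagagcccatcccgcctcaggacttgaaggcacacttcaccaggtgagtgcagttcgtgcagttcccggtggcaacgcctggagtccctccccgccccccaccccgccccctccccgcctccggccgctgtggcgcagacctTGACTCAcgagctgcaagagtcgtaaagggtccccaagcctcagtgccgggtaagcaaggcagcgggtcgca
The Sema4f window holds no TGACG or TGANTCA match and holds 2 matches to CCAAT, both as the reverse complement, whose first bases lie 42 and 14 before the start. The Sema7a window holds 1 TGACG match that begins at base 41 after the start, where the start is base 1. The Sema4c window holds 1 TGANTCA match whose first base lies 22 before the start, and a window at another Sema4c start, chr1:36557508-36557807, holds none of the 4 motifs. Sema3d, Sema3g, Sema4g and Plxdc1 also had ratios beyond 1.5-fold with intervals that crossed the limit, and no window of theirs is printed. The windows of Sema3g and Sema4g hold none of the 4 motifs. That of Sema3d holds a TGACG and a CCAAT match, and Plxdc1 has no window. The Sema4c match is thus not typical of members near the limit. In all, 26 of the 33 members have 37 windows. TGACGTCA was found in 0 of these 37 and in 1.79% of the 32851 windows of all genes. TGACG was found in 3 of 37 (8.11%), in Sema3d, Sema5a and Sema7a, against 20.8% of all windows. TGANTCA was found in 3 of 37 (8.11%), in Sema4c, Sema4d and Sema6b, against 7.81%, and CCAAT in 7 of 37 (18.9%) against 37.4%. Some genes have several windows, so shares were also taken per gene. TGACG was in 11.5% of the 26 members against 23.0% of all genes, and TGANTCA in 11.5% against 8.97%. CCAAT was in 23.1% against 41.1%. Base composition was not matched between members and all genes. A match is a description of these letters and not a measured binding site.

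Of the secreted class 3 ligands all 7 were compared and none was past the size rule, where 8.93% of all compared rows were. Sema3a was the most abundant semaphorin, with 25293 counts untreated and 26873 after PTH. Its level was 27.2 and 28.0 CPM per kb, of a class total of 38.8 and 39.8, and its ratio was 1.03 (1.01 to 1.05). Sema3a therefore made up most of the class in both libraries. Sema3c, which signals through neuropilins and Plxnd1, had 2442 and 2546 counts, a ratio of 1.01 (0.957 to 1.07). Sema3b had 1136 and 1213 counts, a ratio of 1.04 (0.956 to 1.13). Sema3f, a ligand of Nrp2, had 457 and 451 counts, a ratio of 0.958 (0.840 to 1.09). These 4 genes differed little between the libraries. Sema3e and Sema3g had the intervals farthest from 1 in the class, in opposite directions. Sema3e, which binds Plxnd1 without a neuropilin, had 715 and 511 counts, a ratio of 0.694 (0.618 to 0.779). Sema3g, a ligand of Nrp2, had 155 and 275 counts, a ratio of 1.72 (1.41 to 2.11), with the lower end of the interval just under the limit. Sema3d had 25 and 17 counts, too few to place its ratio of 0.660 (0.335 to 1.27) on either side of 1. Sema3a, Sema3c, Sema3d and Sema3e all lie on chromosome 5, between positions 12383385 and 17730268, and their ratios spanned 0.660 to 1.03.

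The class 4 ligands span the membrane and act mainly on B-type plexins. Their summed level was 8.43 CPM per kb untreated and 12.1 after PTH. Sema4c, a ligand of Plxnb2 and the most abundant of them, had 1929 and 2986 counts and levels of 6.25 and 9.40 CPM per kb. Its ratio of 1.503 (1.42 to 1.59) lay at the limit and was not past the rule. Exons of D430040D24Rik on the opposite strand overlap 7.27% of the exonic length of Sema4c, and that row had 10 and 45 counts, a ratio of 4.37 (2.17 to 9.72). No source used here says whether reads were counted by strand. The libraries differed by 35 counts at that row and by 1057 at Sema4c. In absolute level the difference of Sema4c, 3.15 CPM per kb, was larger than that of Sema4f, 0.524. Sema4d had 276 and 377 counts, a ratio of 1.33 (1.13 to 1.55). Sema4b had 534 and 518 counts, a ratio of 0.942 (0.833 to 1.07). Sema4g went the other way from Sema4f and Sema4c, with 78 and 39 counts, a ratio of 0.486 (0.322 to 0.722). That interval crossed the limit, so Sema4g was not past the rule. Sema4a had 28 and 33 counts, and its ratio of 1.14 (0.671 to 1.97) was not distinguishable from 1 at this depth.

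Classes 5 and 6 were low and had no member past the rule, where 8.93% of all compared rows were. Sema6c had 400 and 433 counts, a ratio of 1.05 (0.915 to 1.21). Sema6a, a ligand of Plxna2 and Plxna4, had 379 and 483 counts, a ratio of 1.24 (1.08 to 1.42). Sema5a, which carries thrombospondin repeats, had 356 and 347 counts, a ratio of 0.947 (0.814 to 1.10). The highest of these genes by level was Sema6c, at 1.00 CPM per kb untreated and 1.06 after PTH. Sema6b had 16 counts in each library, a ratio of 0.971 (0.455 to 2.07). Sema6d, known as a partner of Plxna1 in osteoclasts, had 5 and 0 counts and was not compared, and Sema5b was listed at 0 in both libraries.

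The plexins were close to even between the libraries. Of 9 plexins 7 were compared, with ratios from 0.868 to 1.05. None was past the rule, where 8.93% of all compared rows were, and 7 genes are too few to set this apart from that share. The summed plexin level was 133.7 CPM per kb untreated and 133.2 after PTH. Most of that sum is Plxnb2 and Plxna1, which differed in opposite directions, so it does not show the others. Of the 7 compared plexins 2 had a ratio above 1, and their median log2 ratio was -0.04. Plxnb2, a receptor for class 4 semaphorins, was the most abundant member of the family in both libraries. It had 33395 and 33865 counts, 64.4 and 63.4 CPM per kb, and a ratio of 0.985 (0.970 to 0.9998). By level it ranked 650th untreated and 724th after PTH among the 16387 compared rows with a known exonic length. Plxna1, the next, pairs with neuropilins to receive class 3 semaphorins. It had 25264 and 27324 counts, 41.6 and 43.6 CPM per kb, and a ratio of 1.05 (1.03 to 1.07). Gm26811 on the opposite strand overlaps 10.7% of its exonic length and had 349 and 350 counts.

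Plxnd1, the receptor of Sema3e, had 7501 and 7045 counts, a ratio of 0.912 (0.883 to 0.942). Plxna3, another A-type plexin, had 3338 and 3518 counts, a ratio of 1.02 (0.976 to 1.07). Plxna2 had the lowest ratio of the plexins, 0.868 (0.814 to 0.924), from 2073 and 1852 counts. Plxnb1, the Sema4d receptor, had 1984 and 1993 counts, a ratio of 0.975 (0.916 to 1.04). Plxnc1, the plexin that binds Sema7a, had 682 and 640 counts, a ratio of 0.911 (0.817 to 1.02), so its interval includes 1 while that of its ligand Sema7a lies wholly below. Plxna4 was listed at 0 in both libraries and Plxnb3 at 0 untreated and 11 after PTH, and neither was compared. A count of 0 allows up to 3 counts by sampling, which is 0.0447 CPM untreated and 0.0434 CPM after PTH. Zeros were in excess of sampling: 598 rows had no count in 1 of the libraries and between 10 and 29 in the other. Poisson sampling gives 0.0353 such rows if every row has the same level in both libraries. Rows that truly differ between the libraries would add to the 598, and their share was not tested. Given this excess, the listed zeros of Plxna4, Plxnb3, Sema5b and Sema6d are not read as that bound and Plxnb3 is given no fold.

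Of the neuropilins, Nrp2 was the more abundant, with 21420 and 23505 counts and 26.9 and 28.7 CPM per kb. Its ratio was 1.07 (1.05 to 1.09). Nrp1, the main co-receptor for Sema3a, had 2230 and 3153 counts and 3.39 and 4.66 CPM per kb. Its ratio of 1.37 (1.30 to 1.45) was the highest among plexins and neuropilins and not past the rule. Plxdc2 had 5720 and 5955 counts, a ratio of 1.01 (0.975 to 1.05). Plxdc1 had 35 and 59 counts, a ratio of 1.64 (1.06 to 2.56). Plxdc1 and Plxdc2 are known as receptors of the secreted factor PEDF rather than of semaphorins.

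In order of level per length, Plxnb2 and Plxna1 led in both libraries, followed by Sema3a and Nrp2, Plxnd1 and Plxdc2. The counting intervals of Sema3a and Nrp2 overlapped in each library, so these are not told apart. Untreated, Plxna3 and Sema4c, Sema3c and Sema7a, and Sema3b and Nrp1 also overlapped as neighbours. After PTH, Sema4c (9.07 to 9.75) lay above Plxna3 (6.25 to 6.67), and Sema7a (1.95 to 2.33) lay below Plxnb1 (2.87 to 3.14). From Sema4b down to Sema6c each gene's interval overlapped that of the next in both libraries. With the length of the longest coding transcript in place of all exons, Sema3a and Nrp2 stood above Plxna1 in the untreated library, at 63.5, 47.4 and 41.6 CPM per kb.

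**Figure D3:**
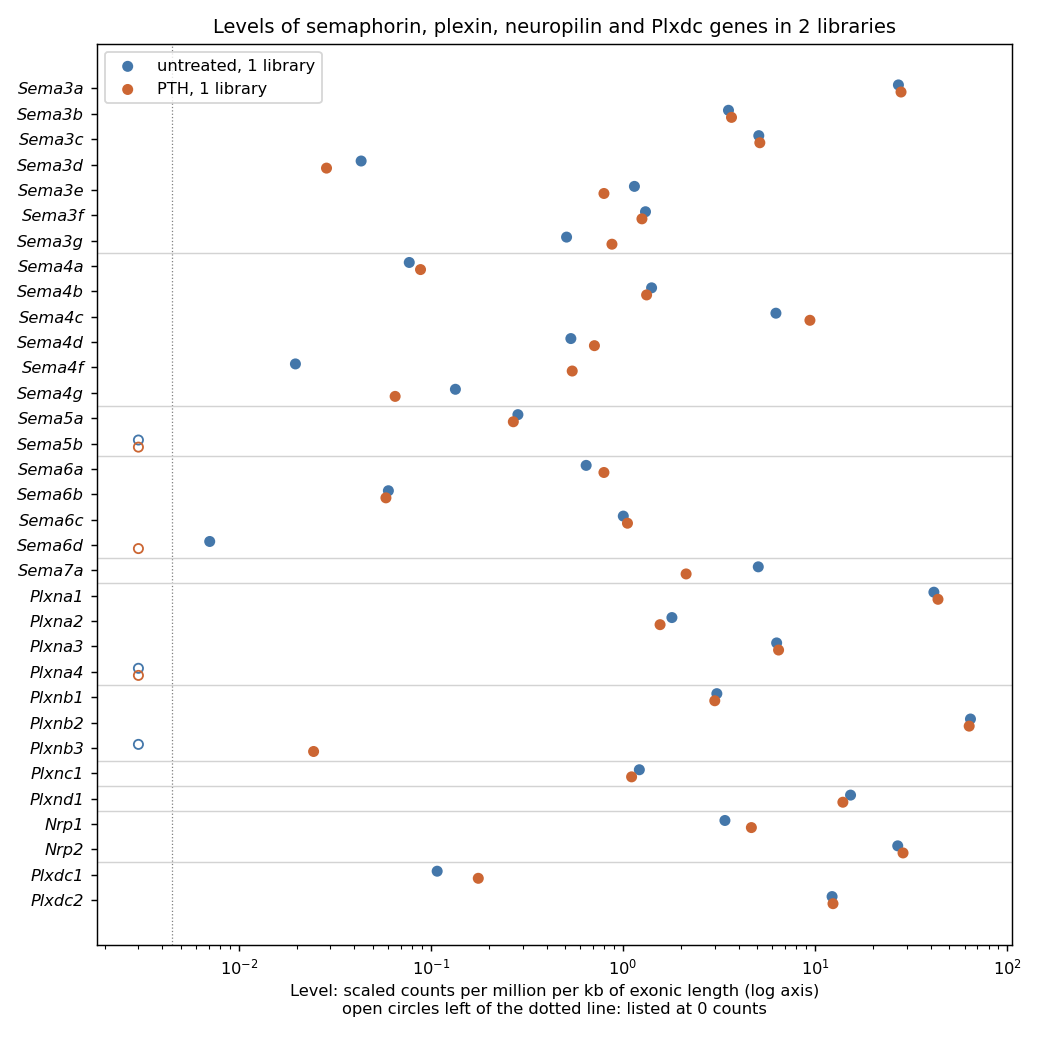
Level of each of the 33 members in the untreated and the PTH library, in CPM per kb of exonic length on a log axis, 1 point per library. Open circles mark rows listed at 0 counts. Levels span from under 0.01 for Sema6d to 64.4 for Plxnb2, and among the compared members the points of a pair lie farthest apart for Sema4f.

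The genes around this family were described from lists of known partners. Of 16 cell surface partners 8 were compared, 1 was past the rule and the median log2 ratio was 0.00. Met, a receptor kinase that associates with B-type plexins, was 2.02-fold higher (1.80 to 2.26), with 470 and 976 counts. Itgb1, the integrin subunit through which Sema7a can signal, had 76622 and 77828 counts, a ratio of 0.986 (0.977 to 0.996), and Ptk7, a co-receptor of plexins, 13935 and 14341 counts, a ratio of 0.999 (0.976 to 1.02). Trem2 and Tyrobp, which form a receptor complex with Plxna1 in osteoclasts, had at most 4 counts, and Kdr, a VEGF receptor that pairs with neuropilins, was listed at 0 in both. Flt1, another VEGF receptor, had 11995 and 13899 counts, a ratio of 1.13 (1.10 to 1.15). These 4 were named after their values were seen. Of the 5 VEGF family ligands, Vegfa was past the rule with more reads, at 11753 and 62585 counts and a ratio of 5.17 (5.07 to 5.27). Vegfc was past it with fewer, at 33 and 3 counts and a ratio of 0.0883 (0.0173 to 0.281). Whether the process behind the excess zeros lowered the 3 counts of Vegfc was not tested. The median log2 ratio of these ligands was 0.01, against 0.00 over all compared rows, and it does not show Vegfa and Vegfc, which differed in opposite directions. Past the rule were 40.0% of these 5 ligands and 12.5% of the 8 compared surface partners, against 8.93% of all compared rows. These shares rest on Vegfa and Vegfc alone and on Met alone. Vegfc has a total of 20 to fewer than 200 counts, a range where 17.2% of rows were past the rule.

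Of 36 cytosolic effectors 33 were compared, none was past the rule with more reads and 2 were past it with fewer, with a median log2 ratio of -0.06. Both belong to the Rnd group of small GTPases, of which Rnd1 binds plexins. Rnd1 had 344 and 148 counts, a ratio of 0.418 (0.342 to 0.508), and Rnd3 had 13944 and 7556 counts, a ratio of 0.526 (0.512 to 0.541). Rnd2, the other gene of the group and named after its value was seen, had 367 and 407 counts, a ratio of 1.08 (0.933 to 1.24). The share of this list past the rule was 6.06%, against 8.93% of all compared rows. None of the 6 compared processing proteases was past the rule. Mmp14, which cleaves Sema4d, was at a ratio of 1.08 (1.06 to 1.09) and Adam10 at 1.05 (1.02 to 1.09), and the list's median log2 ratio was -0.09.

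Beside the 6.9% of compared members, 8.33% of compared Slit, Robo and netrin genes and 11.8% of compared ephrin and Eph genes were past the rule. Of 20 Slit, Robo and netrin genes 12 were compared and 1 was past the rule, Slit3, a secreted ligand of Robo receptors, with 8 and 30 counts and a ratio of 3.64 (1.63 to 9.19). The most counted genes of that list, Unc5b and Slit2, were at ratios of 0.932 (0.912 to 0.952) and 1.04 (1.02 to 1.06). Of 22 ephrin and Eph receptor genes 17 were compared, of which Epha2 was past the rule with more reads, at 1.58-fold (1.54 to 1.61), and Efna3 with fewer, at a ratio of 0.305 (0.140 to 0.615) from 35 and 11 counts. Exons of the opposite strand overlap 14.1% of Efna3. Slit3 and Efna3 have totals of 20 to fewer than 200 counts, a range where 17.2% of rows were past the rule. The median log2 ratios were 0.07 for the first list and -0.02 for the second, and the highest ratio in either was that of Slit3. The family was picked with the ratio of Sema4f known, so it is not ranked against these lists by ratio or share.

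**Figure D4:**
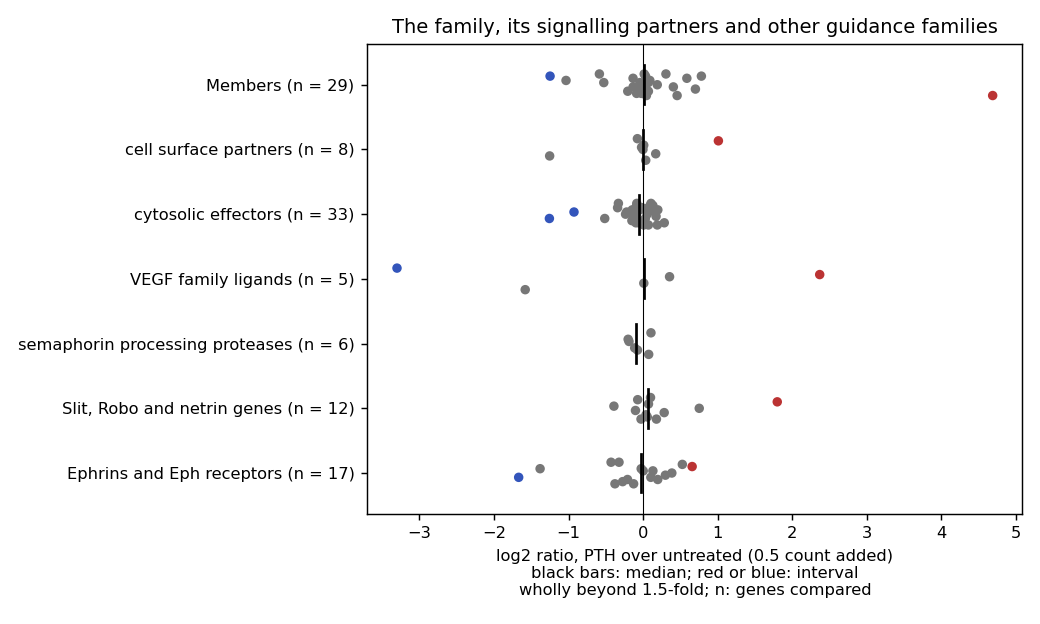
Log2 ratios (0.5 count added), PTH over untreated, of the compared members, 4 lists of partner genes and 2 other guidance families, 1 point per gene. Black bars are medians, red and blue points are genes past the size rule with more and fewer reads. All medians lie between -0.1 and 0.1 and single genes stand apart, Sema4f on the right and Vegfc on the left.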

How the data were processed

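RNA of 2 libraries of MC3T3-E1 cells was compared. The authors deposited 1 table of whole-number read counts per gene. HISAT2 and the mm10 build are named per the submitters' processing notes. No source used here gives the HISAT2 version, counting tool, annotation or use of strand. Coordinates, exonic lengths and exon overlaps came from GENCODE release M21 (GRCm38), which held 55227 of the 55487 identifiers and all 33 members. Counts were scaled by TMM effective library sizes (edgeR 4.0.16, R 4.3.3) from the 16408 rows with a total of 20 or more. With 1 library per group no edgeR test could be fitted. Ratios have 95% exact conditional (Clopper-Pearson) intervals (Python 3.11.15, scipy 1.17.1, numpy 2.4.6, pandas 2.3.3, matplotlib 3.10.9), with reads taken as independent, which PCR copies are not. Log2 ratios add 0.5 count. The interval and rule were tested on simulated Poisson counts, the model that the interval assumes. The simulation held no variation between cultures and no excess zeros, so it checks the calculation only. The members and gene lists were chosen with earlier results of these data known. Every member is named. In each other list up to 4 genes past the rule with the bound nearest 1 farthest from it are named, or the 2 with most counts where fewer than 2 passed, and exceptions are stated. Alternatives were 3 other scalings (DESeq2 1.42.0 size factors among them), other count filters, a fold limit of 2, widened intervals and a pseudocount of 5.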

Additional observations from a re-analysis of the deposited data

How the results depend on the processing

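Sema4f was past the size rule under every alternative run, and Sema7a under every one except the interval widened by an assumed coefficient of variation of 0.2, where 0 members had fewer reads. Without a count filter the members with more reads numbered 2, since Plxnb3 (0 and 11 counts) entered. Over all rows, the numbers with more and fewer reads were 884 and 581 as reported, 1386 and 983 without a filter, 543 and 307 with a total of 100 or more, 517 and 262 with a fold limit of 2, and 474 and 267 with the coefficient of 0.2. Fewer rows tested, or a stricter rule, sets these counts by construction. Per length of the longest coding transcript, the untreated levels of Sema3a and Nrp2 were 63.5 and 47.4 CPM per kb, against 27.2 and 26.9 over all exons. This alternative, the restriction to rows with a count in both libraries and the search for CCAAT were chosen after seeing the data. Under the 3 other scalings 3 of the 29 compared members had a ratio on the other side of 1 (Plxdc2, Plxna3, Sema3c), none of them past the rule. Of the 87 ratios of single members under these scalings, 80 stayed within their counting interval, 7 moved beyond it and 0 of the called ones changed side. No paired analysis was possible because each group has 1 library. The 7 untreated counts of Sema4f leave its ratio imprecise, and its side of the rule rests on counting error or an assumed variation only.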

Other observations

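Neuron markers, looked at because semaphorins are best known from the nervous system, were at 0 in both libraries for 4 of 8. Tubb3, a tubulin gene of neurons, had 523 and 836 counts, a ratio of 1.55 (1.39 to 1.74), and Map2, a microtubule-associated protein gene, 1847 and 2113 counts, a ratio of 1.11 (1.04 to 1.18). Elavl3, an RNA-binding protein gene of neurons, was past the size rule from 6 and 24 counts, a ratio of 3.88 (1.55 to 11.6). Syt1, a synaptic vesicle gene, was listed at 0 and 17 counts and was not compared. Those at 0 were Snap25, Stmn2, Elavl4 and Rbfox3.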
